A study of Mus musculus with 6 samples.

Results

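The genes described here act in homologous recombination and in the Fanconi anemia pathway. They were chosen by gene symbol from a list of 45, and 44 of these symbols were among the 24346 in the deposited tables. The symbol Claspn was absent. The tables instead held Clspn, the mouse gene of the checkpoint adaptor claspin, which was not counted as a member. Transcript levels were measured by RNA sequencing in CT26.mMR1 cells (called parental), a colorectal tumor line of the mouse that carries a retroviral transgene for mouse MR1, and in M8 cells. M8 is 1 mutant clone of that same MR1-transduced line. It was obtained by limiting dilution after exposure to the mutagen N-ethyl-N-nitrosourea (ENU), and it was picked by its surface MR1 and its effect on a T cell reporter line. Each line was sequenced in 3 replicates, both lines carried the MR1 transgene, and the labels give no batch.

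Homologous recombination repairs a DNA double-strand break by copying the sister chromatid, and therefore works mainly in S and G2 phase. The broken ends are first cut back to single strands, BRCA1, PALB2 and BRCA2 and the complexes BCDX2 and CX3 then prepare these strands to invade the intact copy, and helicases and nucleases finally separate the joined molecules. The Fanconi anemia pathway detects crosslinks between the DNA strands and hands the resulting break to the same machinery. Loss of these genes is a known cause of inherited breast and ovarian cancer, of Fanconi anemia and of sensitivity to crosslinking drugs.

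The 6 libraries held an estimated 19.4 to 26.9 M mapped reads, with 23.8 to 26.9 M in the parental replicates and 19.4 to 21.9 M in the M8 replicates. Levels are FPKM, fragments per kilobase of transcript and per M mapped fragments, which allows levels of different genes to be set beside each other. All 8 mesenchymal marker genes were expressed, whereas 9 of 11 epithelial markers had a mean under 1 FPKM and 5 of these were listed at 0 in every sample, although the line is labelled as colon. The epithelial markers above that level were Krt18 (mean 32.5 FPKM in parental cells and 36.4 in M8) and Krt20 (17.4 and 11.9). The 8 leukocyte and 4 endothelial markers in the tables all had a mean under 1 FPKM.

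All 44 members had a mean of at least 1 FPKM over the 6 samples, and 27 had at least 5. H2afx, the gene of the histone variant H2AX, stood apart with a mean of 61.6 FPKM. Next in order came Rad51ap1 (18.8), Mre11a (16.8), Rbbp8 (16.4), Chek2 (14.0) and Fance (13.4), and the range over the 6 samples of each of these 5 genes overlapped that of the next, except for Rbbp8 and Chek2. The lowest means were those of Rmi2 (2.09), Fancc (2.22), Palb2 (2.22) and Fancg (2.50). Brca1 was at 7.84 FPKM and Brca2 at 6.38. With the longest RefSeq transcript of each gene, an estimated 83 reads or more lay behind each member in each library, which corresponds to a counting error of at most 11%. Where a shorter transcript was expressed, the reads would be fewer and the error larger. The coefficient of variation between replicates had a median over members of 5.42% in parental cells and 5.92% in M8, and was highest for Xrcc3 in parental cells (22.3%) and for Rad51b in M8 (26.2%).

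**Figure D1:**
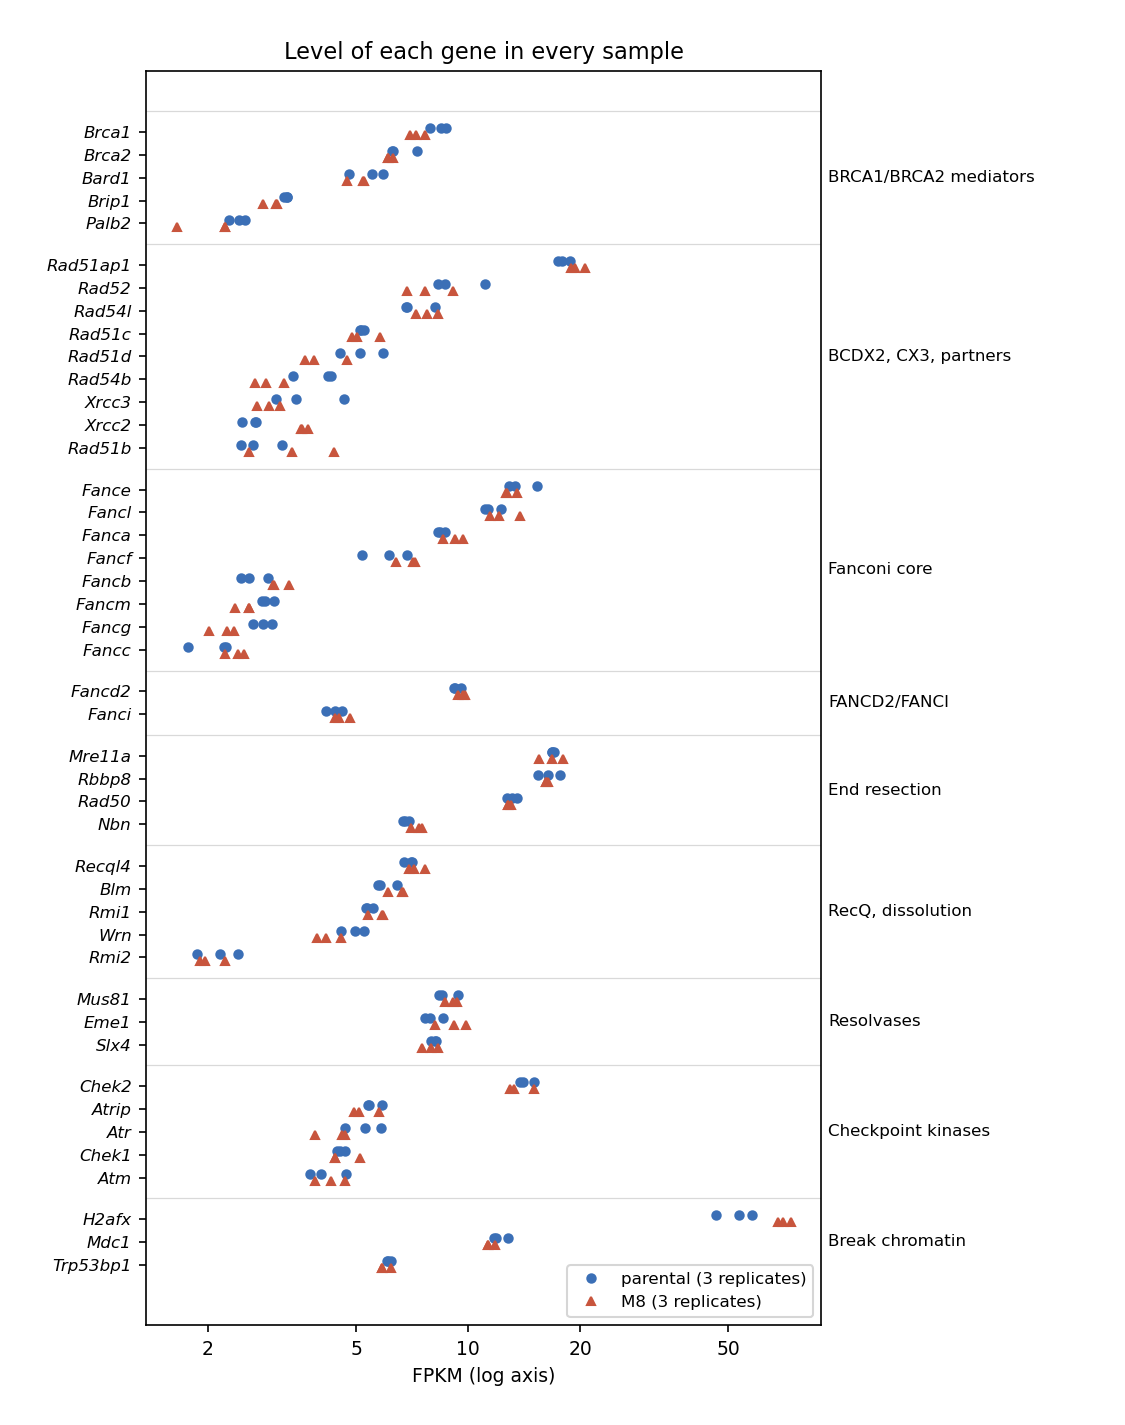
FPKM on a log axis for the 44 genes, grouped by role and ordered by mean, with 3 parental (circles) and 3 M8 (triangles) replicates each. In most rows both groups overlap, and H2afx lies to the right of all other genes with the M8 replicates at 67.9 to 73.6 and the parental ones at 46.3 to 58.1.

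The promoter windows of these genes were read for letters that are typical of cell cycle genes, since many recombination genes are S phase genes. The table of RefSeq promoters on GRCm38.p6, the build called mm10 in the authors' notes, covers 250 bases before to 50 bases after a gene start, and it held 33 of the 44 members. It had no window for H2afx, Xrcc2, Rad51d and Rad54b, which passed the threshold described below, so their promoters were not read. Letters of an E2F site (TTTCCCGC, TTTGGCGC, TTTCGCGC or TTTGCCGC, either strand) were present for 7 of 33 members (21.2%) and for 704 of 27025 genes (2.61%). CCAAT, on either strand, was present for 21 of 33 members (63.6%) against 41.1% of all genes. TTTGAA, the letters of the cell cycle homology region found at many mitotic genes, was present for 3 of 33 members (9.09%) against 20.2% of all genes. Among 20 mitosis genes in the same table the counts were 1 for the E2F letters, 17 for CCAAT and 15 for TTTGAA. Matches of different motifs did not overlap in the members' windows. A match is a run of letters and is not evidence of binding.

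The 250 bases before the start are given for Brca1 and Fancg, which passed the threshold described below, and for Brca2, Chek2 and Mdc1 as 3 examples of members that hold E2F letters there, as Fancg does, but did not pass it (Bard1 does too, and Rad51c has them across its start). Their positions on GRCm38.p6 are Brca1 at chr11:101551956-101552205 (- strand), Fancg at chr4:43010302-43010551 (- strand), Brca2 at chr5:150522371-150522620 (+ strand), Chek2 at chr5:110839733-110839982 (+ strand) and Mdc1 at chr17:35841248-35841497 (+ strand). Each is written 5′ to 3′ on the strand of its gene, and capitals mark the E2F letters and CCAAT or their reverse complements.
Brca1: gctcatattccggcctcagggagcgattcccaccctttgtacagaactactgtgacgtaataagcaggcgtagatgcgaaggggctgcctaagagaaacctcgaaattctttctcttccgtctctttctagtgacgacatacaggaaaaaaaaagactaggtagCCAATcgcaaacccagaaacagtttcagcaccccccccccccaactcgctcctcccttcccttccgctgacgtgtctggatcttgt
Fancg: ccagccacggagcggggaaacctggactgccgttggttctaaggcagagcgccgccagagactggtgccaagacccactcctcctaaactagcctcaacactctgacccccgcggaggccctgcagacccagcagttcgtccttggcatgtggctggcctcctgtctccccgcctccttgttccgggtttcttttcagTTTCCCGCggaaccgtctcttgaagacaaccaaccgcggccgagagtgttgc
Brca2: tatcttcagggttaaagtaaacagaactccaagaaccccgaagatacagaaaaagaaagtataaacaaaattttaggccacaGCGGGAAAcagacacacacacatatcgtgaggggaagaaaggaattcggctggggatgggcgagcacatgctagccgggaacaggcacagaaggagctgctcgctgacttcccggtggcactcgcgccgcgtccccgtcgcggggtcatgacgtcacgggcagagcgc
Chek2: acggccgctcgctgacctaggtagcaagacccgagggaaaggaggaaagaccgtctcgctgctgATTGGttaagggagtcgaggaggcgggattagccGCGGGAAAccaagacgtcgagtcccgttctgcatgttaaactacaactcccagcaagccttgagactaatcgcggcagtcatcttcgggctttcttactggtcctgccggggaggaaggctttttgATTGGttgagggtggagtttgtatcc
Mdc1: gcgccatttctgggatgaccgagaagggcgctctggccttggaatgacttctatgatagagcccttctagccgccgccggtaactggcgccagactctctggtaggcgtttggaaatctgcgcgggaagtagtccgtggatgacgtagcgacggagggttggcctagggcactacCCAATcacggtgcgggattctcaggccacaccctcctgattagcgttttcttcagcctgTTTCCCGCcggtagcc
Brca1 held CCAAT with its first base at -86 from the start and none of the E2F letters. Fancg held TTTCCCGC at -52 and Mdc1 at -16, and Mdc1 also held CCAAT at -75. Brca2 and Chek2 held the reverse complement GCGGGAAA at -168 and -152. These starts are those of the promoter source. The windows of Fancg, Brca2 and Chek2 lay wholly or mostly inside the RefSeq span of the gene. That span ends upstream at 43010567 for Fancg, 150522297 for Brca2 and 110839800 for Chek2. The E2F letters of these genes therefore lay downstream of the outermost RefSeq start.

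Few members differed between M8 and parental cells. With limma on log2(FPKM + 1) and an adjusted p below 0.1, 2 of 44 members (4.55%) were higher in M8, H2afx and Xrcc2, and 21.2% of the 10597 genes tested were. Another 4 members (9.09%) were lower in M8, Brca1, Rad51d, Rad54b and Fancg, against 16.5% of all genes tested. The remaining 38 did not pass. Without adjustment, 8 members (18.2%) had p below 0.05 in either direction, against 41% of all genes tested. The median log2 fold change of the 44 members was -0.01, with 21 above and 23 below 0 and a range of -0.34 to 0.42, and the median over all genes tested was 0.01. The median size of the change, regardless of sign, was 0.09 for members and 0.12 for all genes, while the median standard error was 0.07 for members and 0.06 for all genes. Members were also less abundant, with a median of 6.15 FPKM against 15.4.

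The 3 M8 values lay all above the parental values in 5 members (24.8% of all genes tested did so) and all below them in 7 members (20.4% of all genes tested), and both groups overlapped in the other 32. With 3 samples against 3, the exact two-sided permutation test of a single gene cannot give a p below 0.1, and these 12 members had that p. No member changed by 1.5-fold or more. In all 38 members that did not pass, the 95% confidence interval of the difference lay within 1.5-fold in either direction (0.58 on the log2(FPKM + 1) scale, which understates the fold of low genes). Scaling moved the balance of calls over all genes, from 2250 higher and 1745 lower to 1658 and 2209 with TPM and to 1726 and 2296 with upper-quartile scaling, and the members' counts were 2 higher and 6 lower under both, with Atr and Wrn added. Quantile normalization left Rad54b as the only lower member (16.75% of all genes were lower), and without the filter on low values, where 10.1% of all genes were lower, Brca1 and Rad51d did not pass. The count of lower members was 2 without parental replicate 1 (15.9% of all genes were then lower), 2 without parental replicate 2 (12.6%) and 1 without M8 replicate 1 (10.8%). The count of higher members was 4 without parental replicate 3 (19.8% of all genes).

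**Figure D2:**
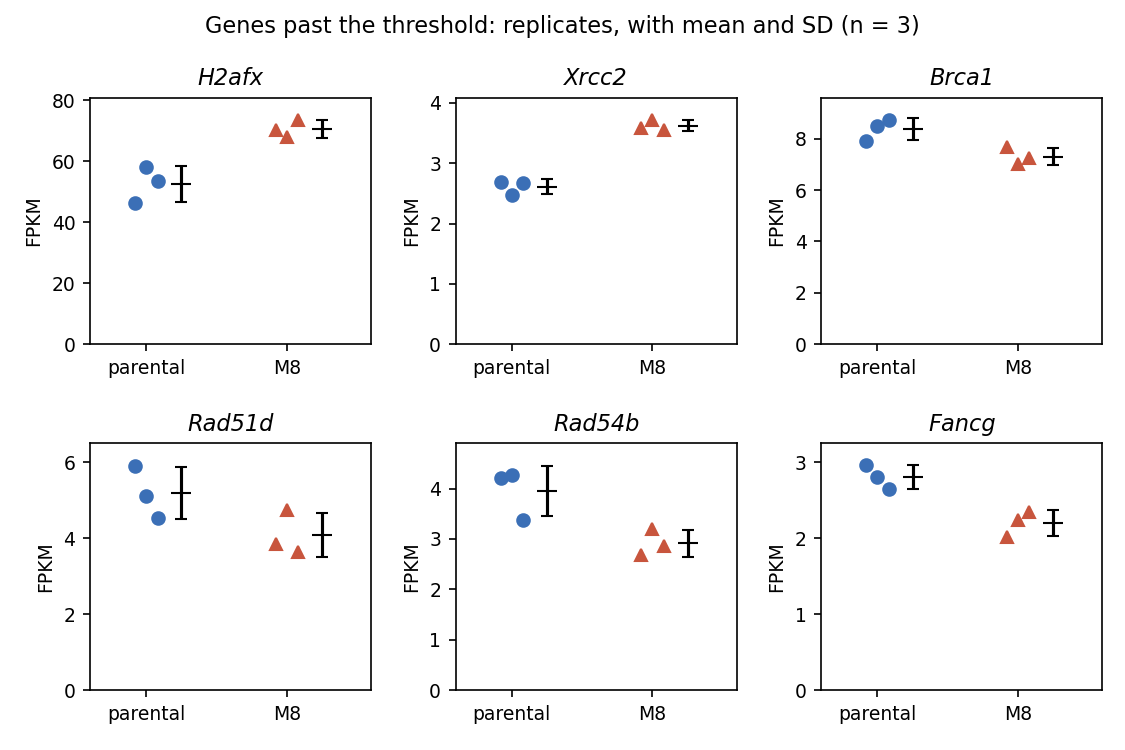
FPKM of the 6 genes past the threshold, with each replicate as a point and the mean with its SD (n = 3) as a bar, on axes that start at 0. H2afx and Xrcc2 are higher in M8, the other 4 are lower, and the groups overlap only for Rad51d.

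On the log2(FPKM + 1) scale the largest difference was that of H2afx, whereas Xrcc2 differed more in percent of mean FPKM and with a pseudocount of 0.1 (0.46 against 0.43 for H2afx). H2afx, which RefSeq names H2ax, lies at chr9:44334715-44336077 on GRCm38. H2AX is the histone that is phosphorylated around a break and marks it for the repair proteins. H2afx was at 46.3, 58.1 and 53.4 FPKM in parental replicates 1 to 3 and at 70.3, 67.9 and 73.6 FPKM in M8 replicates 1 to 3. The lowest M8 replicate lay above the highest parental one. The mean rose by 34.2%, a log2 fold change of 0.42 (SE 0.07, 95% interval 0.26 to 0.59, limma adjusted p = 0.0034). The libraries were made from polyadenylated RNA, and H2afx transcripts are known to exist with and without a poly(A) tail, so the values cover the polyadenylated form.

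The other break chromatin genes did not follow H2afx. Mdc1, the adaptor that binds phosphorylated H2AX, had a mean of 12.1 ± 0.572 FPKM (SD, n = 3) in parental cells and 11.5 ± 0.254 in M8 (limma adjusted p = 0.33). Trp53bp1 encodes 53BP1, which holds back end resection. It was at 6.09, 6.21 and 6.07 FPKM in parental cells and at 6.19, 5.89 and 5.86 FPKM in M8, with a log2 fold change of -0.03 (limma adjusted p = 0.73).

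The genes of the BCDX2 and CX3 complexes and of other strand exchange factors held 1 higher and 2 lower members of 9, which is 11.1% and 22.2% beside the 21.2% and 16.5% of all genes tested. Over the 9 genes the log2 fold change had a median of 0.01. Xrcc2 (chr5:25689814-25705797) and Rad51d (chr11:82871960-82890624) encode neighbouring subunits of the BCDX2 complex, and they differed in opposite directions. Xrcc2 was at 2.69, 2.47 and 2.68 FPKM in parental cells and at 3.59, 3.72 and 3.56 FPKM in M8, without overlap. It rose by 38.5%, with a log2 fold change of 0.36 (SE 0.08, 95% interval 0.19 to 0.52, limma adjusted p = 0.0080). Rad51d was at 5.90, 5.12 and 4.54 FPKM in parental cells and at 3.85, 4.74 and 3.65 FPKM in M8. M8 replicate 2 lay above parental replicate 3, so the groups overlapped. Rad51d fell by 21.3%, with a log2 fold change of -0.28 (SE 0.11, limma adjusted p = 0.072), and no longer passed without parental replicate 1 (adjusted p = 0.195), without parental replicate 2 (0.138), without M8 replicate 1 (0.195) or without M8 replicate 3 (0.202).

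The other subunits of that complex did not pass. Rad51b was at 2.65, 3.17 and 2.46 FPKM in parental cells and at 3.36, 2.58 and 4.37 FPKM in M8, which is the highest coefficient of variation of any member in M8. Rad51c, which is shared with the CX3 complex, had the smallest log2 fold change of the 9 genes. It was at 5.25, 5.11 and 5.17 FPKM in parental cells and at 5.03, 5.81 and 4.88 FPKM in M8 (0.01, 95% interval -0.15 to 0.18). Xrcc3, its partner in CX3, had a mean of 3.72 ± 0.830 FPKM in parental cells and 2.92 ± 0.208 in M8 (limma adjusted p = 0.14).

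Rad54b (chr4:11558920-11615808), a DNA translocase, had the largest decrease of the members. It was at 4.20, 4.28 and 3.38 FPKM in parental cells and at 2.68, 3.20 and 2.86 FPKM in M8, without overlap. The mean fell by 26.3%, with a log2 fold change of -0.34 (SE 0.10, 95% interval -0.55 to -0.12, limma adjusted p = 0.029), and the adjusted p was 0.102 without M8 replicate 1. In the GENCODE vM21 annotation Rad54b shares 2068 of its 5782 exon bases with Fsbp on the same strand, so reads there could be given to either gene, and Fsbp had a mean of 0.244 FPKM. Rad54l, the related translocase RAD54, had a mean of 7.28 ± 0.758 FPKM in parental cells and 7.78 ± 0.523 in M8 (limma adjusted p = 0.44). Rad51ap1, which stimulates strand invasion, lay above the parental range in all 3 M8 replicates but did not pass (log2 fold change 0.12, limma adjusted p = 0.125). Rad52, an annealing factor, had a log2 fold change of -0.22 with overlapping groups (limma adjusted p = 0.18). The Rad52 change was -0.10 without parental replicate 3, and it passed without M8 replicate 3 (-0.32, limma adjusted p = 0.086).

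Among the 5 mediator genes, 1 was lower and 0 were higher, beside 16.5% and 21.2% of all genes tested. All 5 log2 fold changes were below 0, with a median of -0.10. Over all genes tested, 5143 of 10597 were below 0. Brca1 (chr11:101488761-101551955) encodes the ubiquitin ligase that promotes resection and recruits PALB2 and BRCA2. It was at 7.92, 8.48 and 8.73 FPKM in parental cells and at 7.66, 7.00 and 7.23 FPKM in M8, without overlap. The mean fell by 12.9%, with a log2 fold change of -0.18 (SE 0.06, 95% interval -0.32 to -0.04, limma adjusted p = 0.060). The adjusted p was above 0.1 without parental replicate 2 (0.146), parental replicate 3 (0.139), M8 replicate 2 (0.176) or M8 replicate 3 (0.135).

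Bard1, the partner of BRCA1 in that ligase, had the smallest difference of the mediators. It was at 5.51, 5.91 and 4.79 FPKM in parental cells and at 5.25, 4.72 and 5.23 FPKM in M8 (log2 fold change -0.07, 95% interval -0.26 to 0.11). Palb2, which links BRCA1 to BRCA2, and the helicase gene Brip1 each had 3 M8 values below all parental values without passing (limma adjusted p = 0.23 and 0.36). Brca2, a tumor suppressor gene, had a mean of 6.60 ± 0.590 FPKM in parental cells and 6.15 ± 0.115 in M8 (limma adjusted p = 0.38).

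The Fanconi core complex, which places ubiquitin on FANCD2 and FANCI, had 1 lower and 0 higher members of 8, which is 12.5% lower beside 16.5% of all genes tested and 0% higher beside 21.2%. Of the 8 log2 fold changes, 5 were above 0. Fancg (chr4:43002337-43010567), a scaffold subunit of the core, was at 2.96, 2.80 and 2.64 FPKM in parental cells and at 2.02, 2.25 and 2.35 FPKM in M8, without overlap. The mean fell by 21.4%, with a log2 fold change of -0.25 (SE 0.09, limma adjusted p = 0.056). The adjusted p was above 0.1 without parental replicate 1 (0.127), parental replicate 2 (0.122), M8 replicate 1 (0.158) or M8 replicate 2 (0.103). An estimated 110 to 190 reads lay behind each of its values.

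FANCG is known to bind FANCA directly. Fanca had a mean of 8.47 ± 0.185 FPKM in parental cells and 9.17 ± 0.576 in M8 (log2 fold change 0.10, limma adjusted p = 0.23). Fance, which contacts FANCD2, had the smallest difference of the core genes, with 12.9, 13.4 and 15.3 FPKM in parental cells and 12.7, 12.7 and 13.5 FPKM in M8 (-0.09, 95% interval -0.24 to 0.06). The ligase subunit gene Fancl had a log2 fold change of 0.10, and Fancb, Fancc and Fancf had 0.17, 0.14 and 0.17. Fancm, the gene of the translocase that anchors the core to DNA, had -0.14 with 3 M8 values below the parental range (limma adjusted p = 0.198).

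The substrates of the core did not pass, while 21.2% of all genes tested were higher and 16.5% lower. Fancd2 was at 9.55, 9.15 and 9.22 FPKM in parental cells and at 9.71, 9.39 and 9.80 FPKM in M8 (log2 fold change 0.04, 95% interval -0.07 to 0.16). Fanci was at 4.15, 4.60 and 4.40 FPKM in parental cells and at 4.50, 4.39 and 4.83 FPKM in M8 (0.05, 95% interval -0.11 to 0.21). Both groups overlapped for each gene. Fanci shares 921 exon bases with Polg on the other strand.

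The 4 end resection genes were the closest to 0, with a median size of change of 0.02. Rbbp8, the gene of CtIP, which starts resection, was at 16.4, 15.4 and 17.6 FPKM in parental cells and at 16.2, 16.2 and 16.4 FPKM in M8 (log2 fold change -0.01, 95% interval -0.14 to 0.11). Of the MRE11 complex, the nuclease gene Mre11a and the ATPase gene Rad50 had log2 fold changes of -0.02 each. Nbn, the gene of its NBS1 subunit, which recruits ATM, was at 6.78, 6.68 and 6.94 FPKM in parental cells and at 7.02, 7.51 and 7.37 FPKM in M8. These Nbn groups did not overlap, but the difference did not pass (0.09, limma adjusted p = 0.27).

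None of the 5 RecQ helicase and dissolution genes passed, while 21.2% of all genes tested were higher and 16.5% lower. Wrn, the gene of the Werner syndrome helicase, came nearest, with 5.24, 4.97 and 4.57 FPKM in parental cells and 3.93, 4.56 and 4.16 FPKM in M8. All M8 values lay below the parental ones (log2 fold change -0.18, SE 0.08, limma adjusted p = 0.104). Blm, the helicase that dissolves double Holliday junctions, had a log2 fold change of 0.10, and its partner Rmi1 had 0.07. Rmi2, the third partner, was at 2.16, 1.87 and 2.41 FPKM in parental cells and at 1.96, 1.91 and 2.22 FPKM in M8 (-0.05, 95% interval -0.27 to 0.17). Recql4, the gene behind Rothmund-Thomson syndrome, had 0.06.

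None of the 3 genes of resolvases, nucleases that cut joined molecules, passed either, while 21.2% of all genes tested were higher and 16.5% lower. With so few genes this count says little. Eme1 was at 7.92, 7.65 and 8.57 FPKM in parental cells and at 9.86, 9.17 and 8.16 FPKM in M8, with M8 replicate 3 inside the parental range (log2 fold change 0.15, limma adjusted p = 0.157). Its catalytic partner Mus81 had a log2 fold change of 0.05. Slx4, the scaffold of these nucleases, was at 8.18, 8.13 and 7.96 FPKM in parental cells and at 7.93, 7.54 and 8.29 FPKM in M8 (-0.03, 95% interval -0.16 to 0.10).

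None of the 5 checkpoint kinase genes tested passed, while 21.2% of all genes tested were higher and 16.5% lower. Of these 5, Atr was the nearest to the threshold. ATR responds to single-stranded DNA at stalled forks. Atr was at 5.85, 5.27 and 4.66 FPKM in parental cells and at 4.59, 3.89 and 4.67 FPKM in M8, so the groups overlapped narrowly (log2 fold change -0.22, SE 0.09, limma adjusted p = 0.107). Chek1, the gene of the kinase that ATR activates, was at 4.52, 4.44 and 4.68 FPKM in parental cells and at 5.11, 4.38 and 4.40 FPKM in M8 (0.02, 95% interval -0.15 to 0.19). Atm, which responds to breaks, its target Chek2 and the ATR partner Atrip had log2 fold changes of 0.03, -0.05 and -0.07. Atrip shares 1147 exon bases with Trex1 on the same strand. Clspn, named after its values were seen because claspin brings ATR and CHK1 together, had a mean of 10.6 ± 0.405 FPKM in parental cells and 9.51 ± 0.571 in M8 (log2 fold change -0.14, SE 0.06, limma adjusted p = 0.105).

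**Figure D3:**
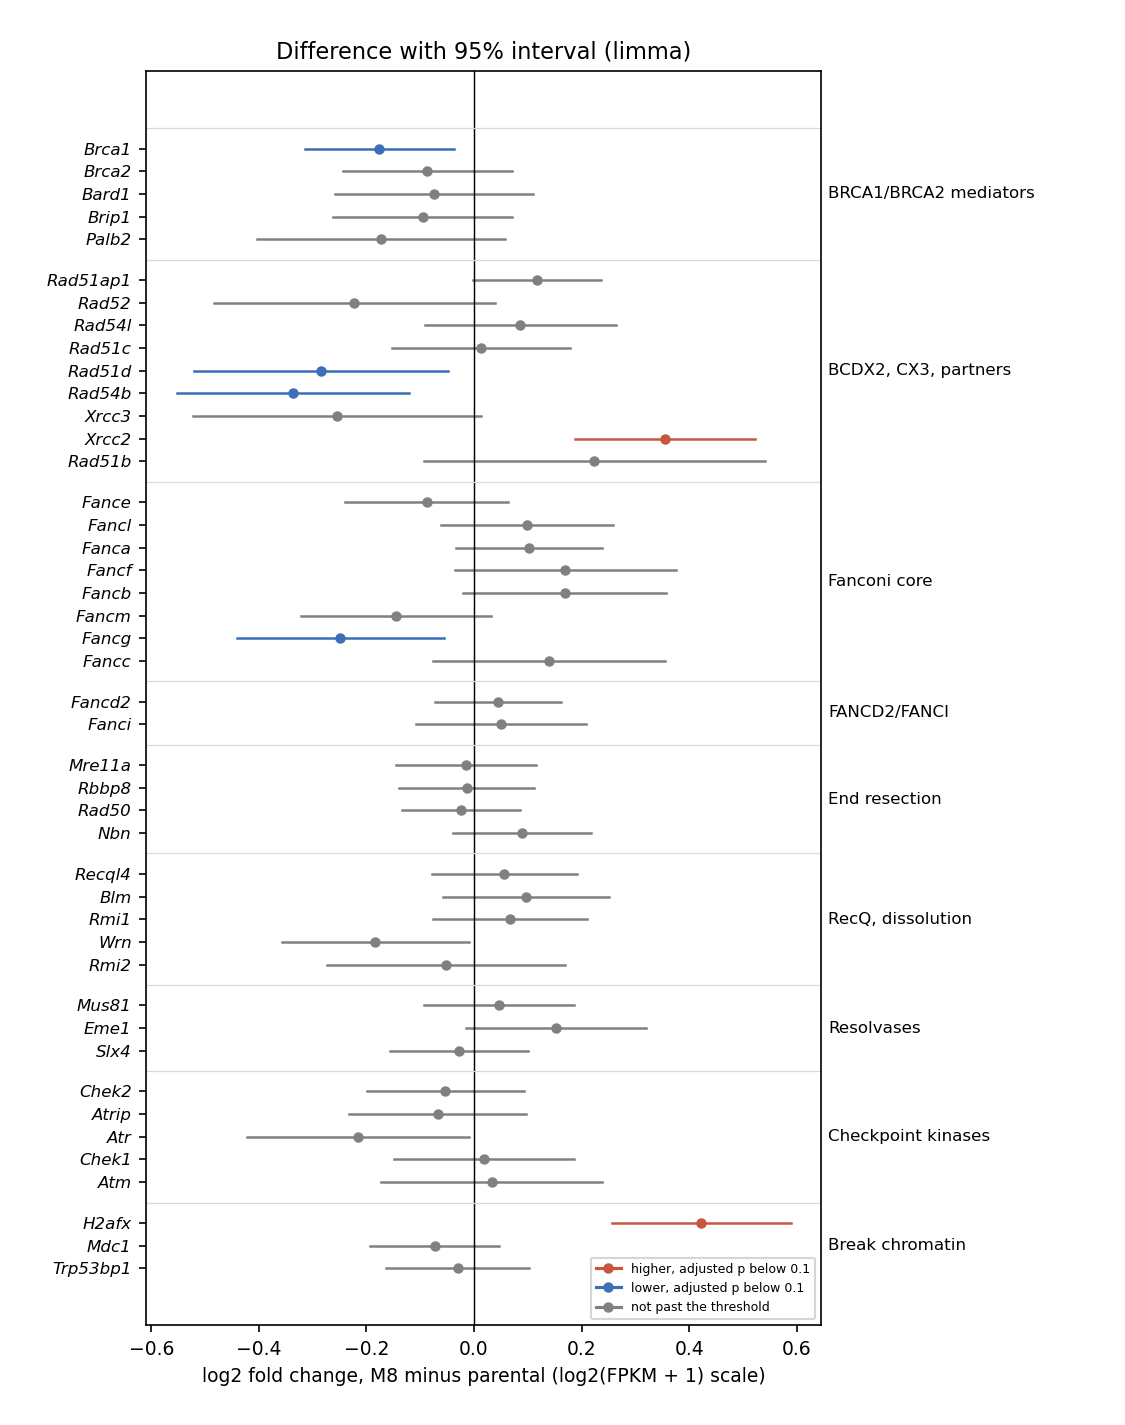
Log2 fold change of M8 minus parental on the log2(FPKM + 1) scale for the 44 genes by role, with 95% intervals from limma (n = 3 against 3). Most intervals cross 0. H2afx and Xrcc2 lie to the right and Brca1, Rad51d, Rad54b and Fancg to the left.

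A further 46 genes of recombination and the Fanconi pathway that are not members were counted in the same fit. Of the 45 tested, 8 were higher in M8 (17.8%, against 21.2% of all genes tested), 3 were lower (6.67%, against 16.5%) and the median log2 fold change was 0.05, while Dmc1, a gene of meiotic recombination, was listed at 0 in every sample. With TPM these counts were 4 higher and 6 lower, against 15.6% and 20.8% of all genes. When each replicate was left out, 4 to 8 were higher and 1 to 3 lower. Of all genes, 15.0% to 19.8% were then higher and 10.8% to 15.9% lower. The 3 called genes with the largest log2 fold changes are given here. Zswim7, the mouse gene of SWS1, a recombination factor, was at 10.5, 12.3 and 13.3 FPKM in parental cells and at 9.41, 8.32 and 8.97 FPKM in M8 (-0.39, SE 0.08, limma adjusted p = 0.0085). Swi5, the gene of another recombination factor, was at 313.3 ± 8.98 FPKM in parental cells and 368.0 ± 9.90 in M8 (0.23, limma adjusted p = 0.0034). Timeless, a fork protection gene, was at 9.05 ± 0.267 and 10.7 ± 1.14 FPKM (0.21, limma adjusted p = 0.055).

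Cell cycle lists are given beside the members because recombination genes are used in S and G2 phase. Of 28 S phase genes, 7 were higher and 4 lower (25.0% and 14.3%, beside 21.2% and 16.5% of all genes tested), and the median was -0.0031 on the log2 scale, but 4 were higher and 5 lower with TPM (15.6% and 20.8% of all genes) and 3 higher and 8 lower with quantile normalization (17.2% and 16.75% of all genes). When each replicate was left out, 4 to 6 were higher and 1 to 5 lower (15.0% to 19.8% and 10.8% to 15.9% of all genes). Mcm5 and Mcm3, subunits of the replicative helicase, had 0.28 and 0.22, and Ccne2, a G1/S cyclin, had -0.44 (limma adjusted p = 0.0041, 0.0070 and 0.0016). Of 24 mitosis genes, all 24 were higher, with a median of 0.41 and a largest change of 0.73 for the mitotic kinase Plk1, and 23 were higher with TPM. Differences between the lists were not tested, and the part of the cell cycle in the members' values was not tested.

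**Figure D4:**
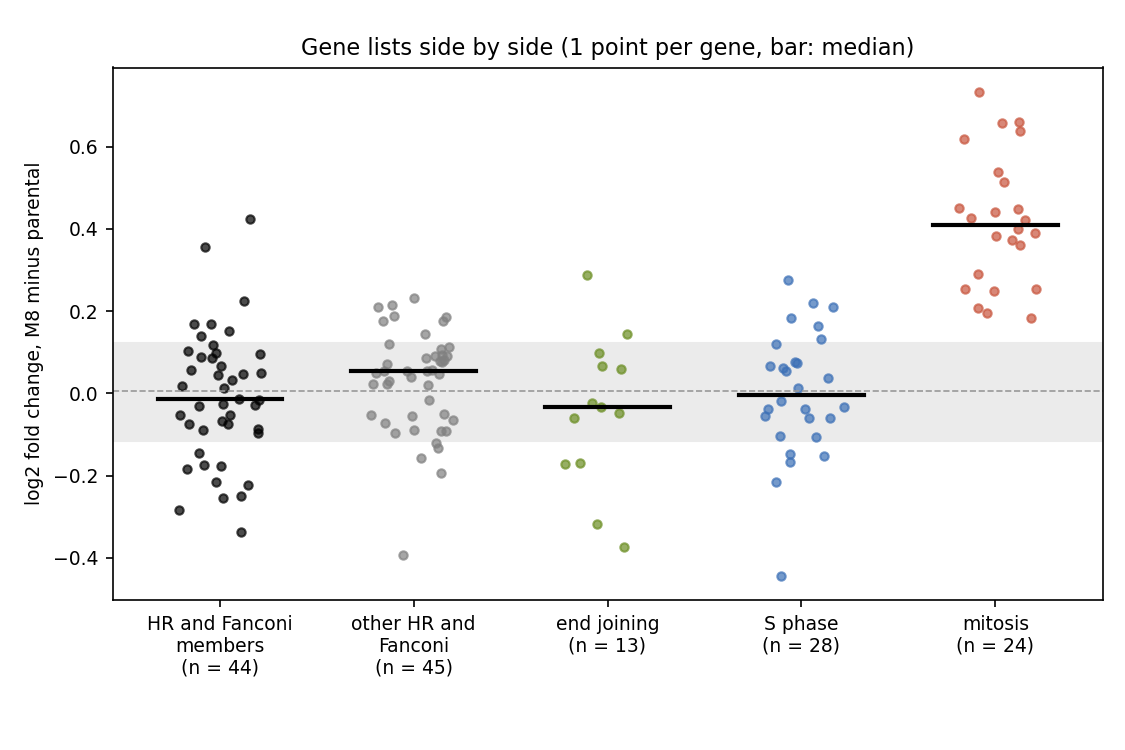
Log2 fold change of M8 minus parental for the 44 members, 45 other recombination and Fanconi genes, 13 end joining genes, 28 S phase genes and 24 mitosis genes, 1 point per gene with the median as a bar. The dashed line is the median of all genes tested (0.01) and the grey band runs from their lower to their upper quartile (-0.12 to 0.12). The mitosis genes lie above 0, with a median of 0.41, and the other 4 medians lie between -0.03 and 0.05.

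Exons of neighbouring genes limit some of these values. In the GENCODE vM21 annotation, 16 of the 44 members share exon bases with another protein-coding gene, 2 of them on the same strand (Rad54b and Atrip). The libraries were stranded, but whether the counting used the strand is not given in the sources used here.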

How the data were processed

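Samples were grouped by their titles. The authors made stranded mRNA libraries, read as single reads, and deposited 1 table of FPKM values per sample. The submitters' processing notes name TopHat2 2.1.1, Bowtie2 2.2.8, SAMtools 0.1.18 and Cuffdiff 2.2.1 and the build mm10. The annotation and any filter are not given in the sources used here. FPKM values are not counts, so values of log2(FPKM + 1) were fitted with limma 3.58.1 in R 4.3.3 (lmFit, eBayes with a trend), for those 10597 genes whose mean FPKM reached 1. No covariate was used, p-values were adjusted after Benjamini and Hochberg over all these genes, and the threshold was 0.1, the false discovery rate used in the study. Fold changes on this scale understate those of low genes. The labels only number the replicates, while the study describes its parental and M8 counts as coming from 3 biological replicates of each. Whether these were separate cultures is not given in the sources used here. The p-values set the group difference against the spread between these samples, which eBayes moderates with that of other genes. They do not cover variation between clones, since M8 is 1 clone. The fit was tested on simulated data.

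Depth was estimated from the FPKM steps of low genes with a single annotated transcript, taking its length less 199 bases as the effective length, and 67.0% to 70.0% of those values came out whole within 0.04 of a read. Estimated reads cover counting error only, and too few values came out whole for a count test. Promoters came from RefSeq and exon overlaps from GENCODE vM21.

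The members, roles, lists and motifs were chosen with earlier results of these data known. Values in every sample are given for members past the threshold and for the largest and smallest log2 fold change in each role, and the 3 largest called changes are named from each other list. Of the cell cycle lists only some of these are named, and of the marker lists only Krt20. Alternatives were pseudocounts of 0.1 and 0.5, no filter, a mean FPKM of at least 5, TPM, upper-quartile scaling, quantile normalization, median centring, no trend in eBayes, a threshold of 0.05, a replicate block and leaving out each replicate. The values of some genes of the other recombination and Fanconi list are not reported here.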

Additional observations from a re-analysis of the deposited data

How the results depend on the processing

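H2afx and Xrcc2 were called higher under each of the 17 alternatives that tested them (Xrcc2 was not tested at a mean FPKM of at least 5), and 28 members were called under none, whereas 10 were called only under an alternative. The same counts were not made over all genes, so these 2 counts have no share to be set beside. The count of higher members was 1 with a mean FPKM of at least 5 (25.9% of all genes) and ranged from 2 to 4 when each replicate was left out in turn (15.0% to 19.8% of all genes). The count of lower members was 2 without the filter (10.1% of all genes tested then), 1 at a mean FPKM of 5 or more (16.2%), 1 with quantile normalization (16.75%) and 1 at an adjusted p below 0.05 (Rad54b; 11.3%), and it ranged from 1 to 5 when each replicate was left out (10.8% to 15.9%). Without a trend in eBayes, 3 members were higher (19.5% of all genes), with Fancb added. In that setting 6 members were lower (16.75%), with Fancm and Wrn added. Quantile normalization gave 3 higher members (17.2% of all genes), also with Fancb added. Fewer genes were tested at the mean FPKM of at least 5, where 27 members remained, and the cause of the other changes was not tested. The members' median log2 fold change was 0.012 at a mean FPKM of at least 5, -0.050 with TPM, -0.049 with upper-quartile scaling and 0.032 with quantile normalization. Of the members, 36 kept their sign throughout, and none of the 8 that did not had passed the threshold. Rad51c was at -0.020 with TPM and -0.019 with upper-quartile scaling, Chek1 at -0.013 and -0.012, and with quantile normalization Rmi2 was at 0.038 and Trp53bp1 at 0.026. When each replicate was left out, Rad51c ranged from -0.053 to 0.054, Mre11a from -0.065 to 0.037, Rbbp8 from -0.058 to 0.034, Rmi2 from -0.12 to 0.0080, Slx4 from -0.058 to 0.0025, Atm from -0.024 to 0.11 and Chek1 from -0.042 to 0.050. Samples of the same number did not deviate together from their group means (Pearson's r across genes, which are not independent, of 0.10, -0.11 and -0.03), and parental replicates 2 and 3 each correlated better with an M8 replicate of another number. With the replicate block, 2 members were higher (20.5% of all genes), 6 were lower (15.9%), with Rad52 and Xrcc3 added, and the median was -0.014. Depth limits most the members with the fewest estimated reads, such as Rad51b with 83 to 150.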

Other observations

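End joining, the other main route of break repair, was counted in the same fit and is described by its counts. Of 13 end joining genes, 2 were higher and 2 lower (15.4% each, against 21.2% and 16.5% of all genes tested), and the median was -0.03 on the log2 scale. When each replicate was left out, 0 to 1 were higher and 2 to 3 lower (15.0% to 19.8% and 10.8% to 15.9% of all genes). At an adjusted p below 0.05, 0 were higher and 2 lower (16.4% and 11.3% of all genes). Xrcc6, the gene of KU70, which binds broken ends, was at 56.1, 48.5 and 60.7 FPKM in parental cells and at 40.8, 41.2 and 44.3 FPKM in M8, without overlap (-0.37, SE 0.07, limma adjusted p = 0.0063). Xrcc5, the gene of KU80, did not pass, with means of 19.6 FPKM in parental cells and 19.2 in M8 (-0.02, limma adjusted p = 0.80). Aplf, the gene of an adaptor that binds KU, was at 6.38, 6.09 and 7.05 FPKM in parental cells and at 4.93, 4.87 and 5.24 FPKM in M8, also without overlap (-0.32, limma adjusted p = 0.0097). Nhej1, the gene of the ligation factor XLF, was at 3.58, 3.18 and 3.05 FPKM in parental cells and at 3.81, 4.95 and 3.94 FPKM in M8 (0.29, limma adjusted p = 0.054).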
